A study of Sus scrofa with 60 samples.

Results

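Aminoacyl-tRNA synthetases are the enzymes that attach an amino acid to its transfer RNA (tRNA), the step that supplies the ribosome with charged tRNA. Their 36 genes were followed here in 60 liver samples of neonatal pigs. A gene was a member if its symbol was a 1-letter amino acid code followed by ARS, with or without a final 1 or 2, or was EPRS, EPRS1, FARSA, or FARSB. This rule found 36 of the 30335 named genes of the count table, and all 36 were among the 16210 genes with enough counts to be tested. The 16 members with a symbol ending in 2 were taken as the mitochondrial enzymes and the other 20 as the cytosolic enzymes.

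The pigs were delivered by cesarean section before term from sows of mixed Landrace and Hampshire breed, and both sexes were used. On the day of delivery the cystic duct and the common bile duct were tied off (BDL), or the abdomen was opened and the liver handled briefly (sham). Every pig then received a jugular catheter and parenteral nutrition (PN) for the first day. Enteral pigs (ENT) were moved to a milk replacer formula given through an orogastric tube, whereas the others stayed on PN with a soy lipid emulsion (SLE, Intralipid, labelled IL) or a multicomponent lipid emulsion (MLE, SMOFlipid, labelled SL), and diets were matched for calories. Liver was taken on day 14 from sham pigs on ENT (12), SLE (10), and MLE (9) and from BDL pigs on ENT (10), SLE (11), and MLE (8). SLE-sham replicates 9 and 10 share 1 pig identifier in their labels and may be of the same pig. They are counted as 2 pigs here, and leaving out either gave 19 or 21 called members in SLE-sham against ENT-sham in place of 20. The ENT diet thus differed from PN in route, formula, and amino acid source as well as in lipid, and these cannot be told apart.

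Cells keep separate sets of these enzymes for translation in the cytosol and in mitochondria, all of them encoded in the nucleus. KARS and GARS, which charge lysine and glycine, serve both compartments from a single gene and have no partner ending in 2. EPRS carries the glutamate and proline activities in a single protein, FARSA and FARSB are the subunits of the cytosolic phenylalanine enzyme, and several cytosolic enzymes sit in a multisynthetase complex on the scaffold proteins AIMP1, AIMP2, and EEF1E1. Because the liver makes most plasma proteins, it places a heavy demand on tRNA charging, and transcription of many cytosolic synthetase genes is known to be raised by ATF4, the factor of the integrated stress response (ISR).

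Libraries held 14469788 to 21374161 counted reads (median 17254606), of which the 36 members took 0.132% to 0.228% (median 0.172%). Summed CPM (counts scaled to 1 common library size) of 9 hepatocyte markers ranged from 63500 to 137000 over all pigs, and none of these markers was at 0 in all pigs. ENT-sham replicate 2 and ENT-BDL replicate 1 were the closest pair over the members. Their root mean square difference in log2 CPM was 0.124, the smallest of 1770 pairs of pigs, with 0.139 as the next and 0.327 as the median, and their labels put them in different groups but share the number within the pig identifier. Counts of called members with and without both are given.

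The members lie on 14 chromosomes of the Sscrofa11.1 assembly, as the deposited table and RefSeq place them. TARS is on chromosome 16 from 19455294 to 19486735 on the plus strand, SARS on chromosome 4 from 110857067 to 110874712 on the minus strand, and IARS on chromosome 3 from 41945846 to 42022610 on the minus strand. QARS is on chromosome 13 from 31715686 to 31723200 on the minus strand. EPRS (9579301 to 9648416) and IARS2 (9685641 to 9739816) are neighbours on chromosome 10, on opposite strands.

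Compared per kilobase (kb) of gene length, cytosolic enzymes were expressed at a median of 20.1 CPM per kb (3.69 to 77.0) and mitochondrial enzymes at a median of 5.27 (0.898 to 12.2), beside 3.71 for all tested genes. KARS had the highest level, 77.0 ± 15.1 CPM per kb (SD, n = 60), followed by SARS, the seryl enzyme, at 43.6 ± 9.80 and QARS, the glutaminyl enzyme, at 33.5 ± 6.11. CARS2, the mitochondrial cysteinyl enzyme, stood at 12.2 ± 1.85 and IARS2, the mitochondrial isoleucyl enzyme, at 9.67 ± 0.971. CARS, the cytosolic cysteinyl enzyme, was the lowest cytosolic member at 3.69 ± 0.695. Cysteine was thus an exception to the usual order, since its mitochondrial enzyme had the higher level per kb, with a deposited length of 2218 bases against 8127 for CARS. Without division by length CARS had more reads, 30.0 CPM against 27.1 for CARS2. In the order of levels, 29 of the 35 neighbouring pairs differed by less than the larger of their SDs. The 6 steps beyond it were KARS to SARS, SARS to QARS, NARS to MARS, EARS2 to RARS2, YARS2 to NARS2, and NARS2 to MARS2. MARS2 came last at 0.898 ± 0.161, but its deposited length of 15409 bases equals its whole gene span, which lowers a value per kb.

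**Figure D1:**
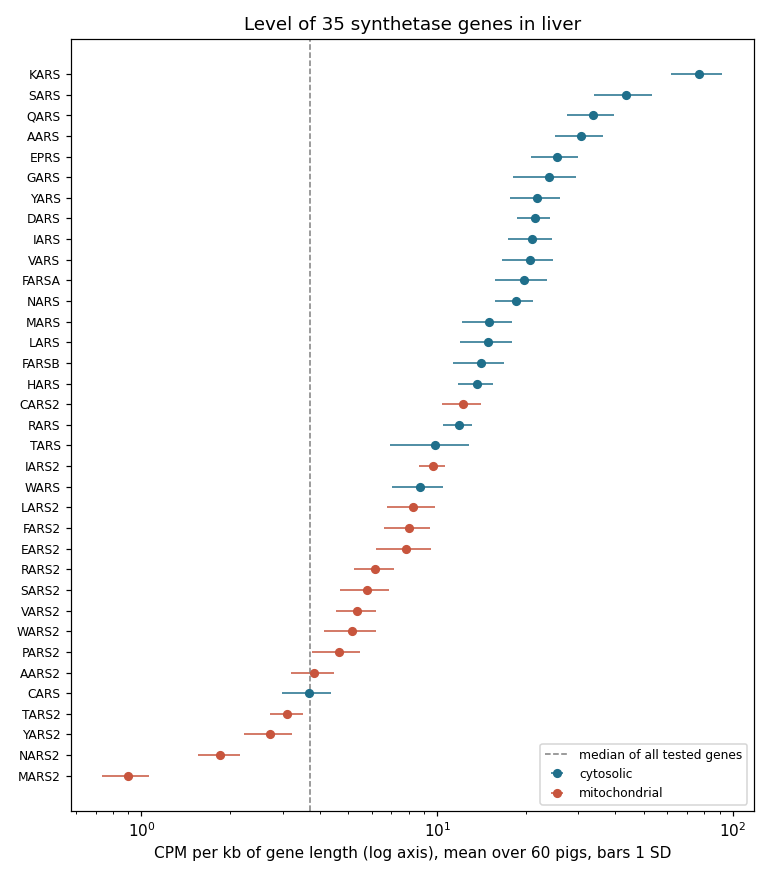
Mean CPM per kb of gene length over 60 pigs for 35 of the 36 genes, on a log axis, with bars of 1 SD; blue points are cytosolic enzymes and orange points mitochondrial enzymes. KARS stands at the top with 77.0, CARS is the only cytosolic gene among the lowest mitochondrial ones, and the dashed line marks 3.71, the median of all tested genes.

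The first question was whether PN livers differed from ENT livers within a surgery. Of the 20 cytosolic members, 12 to 15 were higher in each comparison of PN with ENT, by 1.15-fold to 1.70-fold, QARS was lower after BDL, and the others did not pass the test. Of the 16 mitochondrial members, 4 to 7 were higher. A member was called higher or lower if its adjusted p in edgeR's quasi-likelihood test (Benjamini-Hochberg over 16210 genes) was under 0.05. In SLE-BDL against ENT-BDL, 21 members were called higher and 1 lower, or 61.1% of the members beside 19.6% of all tested genes (10.4% higher and 9.17% lower). MLE-BDL against ENT-BDL gave 17 higher and 1 lower, or 50% beside 16.8% (8.53% higher and 8.27% lower). SLE-sham against ENT-sham gave 20 higher and 0 lower, or 55.6% beside 27.5% (13.9% higher and 13.6% lower). MLE-sham against ENT-sham gave 17 higher and 0 lower, or 47.2% beside 21.1% (10.7% higher and 10.4% lower). No member passed a 2-fold change in these 4 comparisons, beside 3.13%, 3.18%, 5.24%, and 3.71% of all tested genes. Both PN diets were set against the same ENT pigs, so the comparisons within a surgery are not independent of each other. In liver tissue, fewer cells of a type and less RNA per cell cannot be told apart.

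By compartment, 14 cytosolic members were higher and 1 was lower in SLE-BDL against ENT-BDL (of 20, median log2 fold change 0.33), while 7 of 16 mitochondrial members were higher (median 0.14). In MLE-BDL against ENT-BDL, 12 cytosolic members were higher and 1 was lower (median 0.33) and 5 mitochondrial members were higher (median 0.10). SLE-sham against ENT-sham had 15 cytosolic (median 0.32) and 5 mitochondrial members higher (median 0.06). In MLE-sham against ENT-sham the counts were 13 (median 0.30) and 4 (median 0.11). Medians over all tested genes were between -0.01 and 0.01. The difference between the classes was not tested. With an added term for the number within the pig identifier, whose meaning the labels do not give, SLE-sham against ENT-sham went from 20 to 15 called members (11 cytosolic and 4 mitochondrial) and MLE-sham against ENT-sham from 17 to 11 (10 and 1). Mitochondrial medians were then 0.12, 0.04, 0.01, and 0.07 in SLE-BDL, MLE-BDL, SLE-sham, and MLE-sham, and cytosolic medians 0.34, 0.33, 0.25, and 0.23. With this term the calls lost were HARS in SLE-BDL, YARS, EARS2, and LARS2 in MLE-BDL, VARS, YARS, LARS, HARS, and SARS2 in SLE-sham, and VARS, LARS, FARSB, PARS2, NARS2, and WARS2 in MLE-sham. Calls gained were KARS (lower) and VARS2 (higher) in SLE-BDL and CARS and VARS2 (both higher) in MLE-BDL, so that SLE-BDL went from 22 to 23 and MLE-BDL from 18 to 17. Without the closest pair of ENT libraries, the cytosolic and mitochondrial calls were 13 and 7, 13 and 6, 14 and 5, and 12 and 4 in the same order of comparisons.

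**Figure D2:**
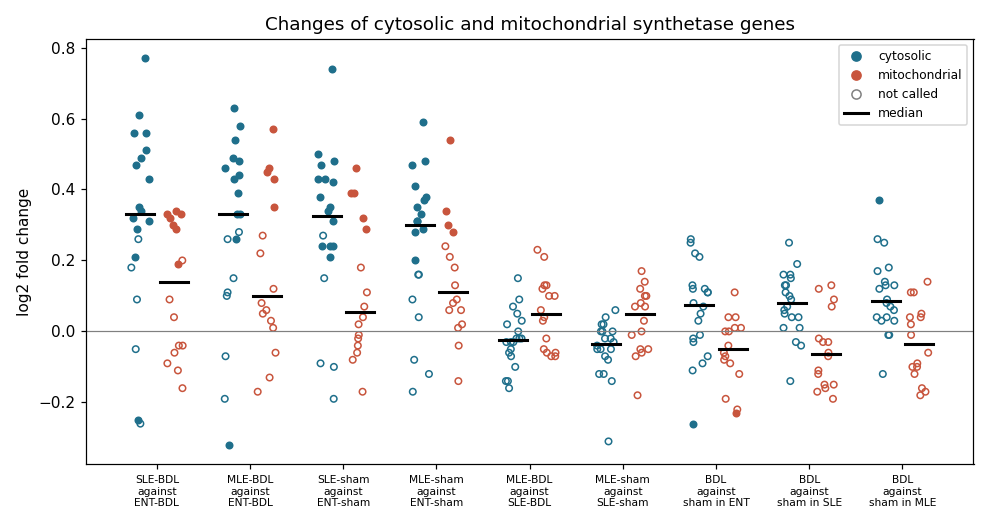
Each point is the log2 fold change of a gene in the comparison named below it, blue for the 20 cytosolic and orange for the 16 mitochondrial enzymes; filled points were called at an adjusted p under 0.05 and black bars are medians. Blue medians lie between 0.30 and 0.33 in the 4 comparisons of PN with ENT, whereas no point is filled in the comparisons of MLE with SLE.

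TARS, the cytosolic threonyl-tRNA synthetase, had the largest change of the members in each of the 4 comparisons. TARS had 32.1 to 53.3 (median 41.0) CPM in ENT-sham and 29.2 to 63.3 (median 46.5) in ENT-BDL. In PN pigs, TARS had 55.6 to 81.9 (median 68.0) CPM in SLE-sham, 54.4 to 105 (median 77.5) in SLE-BDL, 45.8 to 80.0 (median 61.4) in MLE-sham, and 53.7 to 86.7 (median 78.9) in MLE-BDL. Of the SLE-BDL pigs, 10 of 11 lay above every ENT-BDL pig, and all 10 SLE-sham pigs lay above every ENT-sham pig. Its log2 fold changes were 0.77 ± 0.11 (SE, 1.70-fold, adjusted p = 1.21e-06 in edgeR) in SLE-BDL and 0.63 ± 0.12 (adjusted p = 0.000133 in edgeR) in MLE-BDL against ENT-BDL. Among sham pigs they were 0.74 ± 0.11 in SLE and 0.59 ± 0.11 in MLE.

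SARS charges tRNA with serine and also the selenocysteine tRNA. SARS had 45 to 79.4 (median 69.9) CPM in ENT-sham and 43.7 to 77.8 (median 66.1) in ENT-BDL. In PN pigs, SARS had 75.5 to 131 (median 94.7) CPM in SLE-sham, 76.2 to 116 (median 97.4) in SLE-BDL, 68.7 to 120 (median 98) in MLE-sham, and 86.6 to 108 (median 96.8) in MLE-BDL. All 8 MLE-BDL pigs and 10 of 11 SLE-BDL pigs lay above every ENT-BDL pig, while some sham pigs overlapped. The log2 fold changes of SARS were 0.61 ± 0.10 on SLE and 0.58 ± 0.11 on MLE after BDL, and 0.48 ± 0.10 and 0.48 ± 0.10 in SLE-sham and MLE-sham against ENT-sham (edgeR adjusted p between 7.07e-06 and 0.000235).

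IARS, the cytosolic isoleucyl enzyme, was without overlap between PN and ENT in all 4 comparisons. IARS had 73.0 to 89.4 (median 83.3) CPM in ENT-sham and 75.6 to 93.6 (median 87.0) in ENT-BDL. In PN pigs, IARS had 98.6 to 152 (median 112) CPM in SLE-sham, 97.8 to 126 (median 104) in SLE-BDL, 96.2 to 129 (median 117) in MLE-sham, and 105 to 134 (median 117) in MLE-BDL. In every PN group the lowest pig lay above the highest ENT pig of the same surgery. IARS differed by 0.50 ± 0.06 in SLE-sham and 0.47 ± 0.06 in MLE-sham against ENT-sham on the log2 scale (edgeR adjusted p = 3.53e-10 and 9.19e-09). After BDL the differences were 0.31 ± 0.06 in SLE and 0.46 ± 0.06 in MLE.

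Groups without overlap were few. AARS and IARS did not overlap between SLE-BDL and ENT-BDL, or 2 of 36 members beside 0.771% of all tested genes. Between MLE-BDL and ENT-BDL these were AARS, IARS, SARS, WARS, and SARS2 (5 of 36, beside 2.21%). IARS and TARS were without overlap between SLE-sham and ENT-sham (2 of 36, beside 1.69%), and IARS between MLE-sham and ENT-sham (1 of 36, beside 1.34%).

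AARS, the alanyl enzyme, and VARS, the valyl enzyme, had larger estimates after BDL than after sham surgery, although the interaction was not called. AARS had 62.9 to 110 (median 91.6) CPM in ENT-sham and 71.1 to 96.7 (median 88.2) in ENT-BDL. In PN pigs, AARS had 98.4 to 145 (median 112) CPM in SLE-sham, 104 to 152 (median 125) in SLE-BDL, 94.1 to 129 (median 108) in MLE-sham, and 101 to 136 (median 120) in MLE-BDL. Each of the 11 SLE-BDL and 8 MLE-BDL pigs lay above all ENT-BDL pigs, against 5 of 10 SLE-sham and 4 of 9 MLE-sham pigs above all ENT-sham pigs. VARS had 55.1 to 92.9 (median 75.6) CPM in ENT-sham and 41.7 to 82.5 (median 62.1) in ENT-BDL. In PN pigs, VARS had 71.8 to 116 (median 86.8) CPM in SLE-sham, 74.4 to 121 (median 89.0) in SLE-BDL, 75.9 to 103 (median 94.6) in MLE-sham, and 75.1 to 127 (median 88.1) in MLE-BDL. AARS rose by 0.56 ± 0.08 and 0.49 ± 0.09 on the log2 scale in SLE-BDL and MLE-BDL, and by 0.34 ± 0.08 and 0.28 ± 0.08 in SLE-sham and MLE-sham. VARS rose by 0.56 ± 0.10, 0.54 ± 0.10, 0.24 ± 0.09, and 0.29 ± 0.10 in the same order. The interaction of SLE with BDL was 0.22 ± 0.11 for AARS (edgeR adjusted p = 0.368) and 0.33 ± 0.13 for VARS (edgeR adjusted p = 0.203). The call of VARS in SLE-sham (edgeR adjusted p = 0.0484) was lost in 33 of the 60 fits that each left out 1 pig.

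EPRS charges both glutamate and proline, MARS charges methionine, and YARS charges tyrosine. EPRS had 75.5 to 120 (median 107) CPM in ENT-sham and 78.3 to 125 (median 101) in ENT-BDL. In PN pigs, EPRS had 114 to 167 (median 134) CPM in SLE-sham, 120 to 167 (median 134) in SLE-BDL, 111 to 156 (median 142) in MLE-sham, and 120 to 160 (median 133) in MLE-BDL. Medians of the 4 PN groups were thus all above the highest ENT pig. EPRS changed by 0.43 ± 0.08, 0.43 ± 0.09, 0.43 ± 0.08, and 0.41 ± 0.08 on the log2 scale in SLE-BDL, MLE-BDL, SLE-sham, and MLE-sham. MARS had 26.8 to 47.9 (median 40.9) CPM in ENT-sham and 31.1 to 50.1 (median 38.3) in ENT-BDL. In PN pigs, MARS had 46.3 to 62.7 (median 53.1) CPM in SLE-sham, 46.4 to 64.4 (median 55.3) in SLE-BDL, 43.9 to 60.2 (median 50.5) in MLE-sham, and 46.9 to 67.3 (median 53.3) in MLE-BDL. For MARS, which charges both the initiator and the elongator tRNA, 9 of 11 SLE-BDL and 7 of 8 MLE-BDL pigs were above all ENT-BDL pigs. YARS had 37.6 to 65.5 (median 53.6) CPM in ENT-sham and 36.3 to 63.9 (median 47.7) in ENT-BDL. In PN pigs, YARS had 51.5 to 93.0 (median 66.5) CPM in SLE-sham, 56.2 to 81.4 (median 73.4) in SLE-BDL, 54.9 to 82.2 (median 70.9) in MLE-sham, and 56.0 to 69.6 (median 64.8) in MLE-BDL. For YARS, 8 of 11 SLE-BDL and 5 of 8 MLE-BDL pigs were above all ENT-BDL pigs. The differences of MARS lay between 0.38 and 0.51 and those of YARS between 0.33 and 0.49 (log2, SE 0.09 to 0.10). With the term for the identifier number, YARS had 0.22 in SLE-sham (edgeR adjusted p = 0.0503) and 0.29 in MLE-BDL (edgeR adjusted p = 0.0587).

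FARSA, the catalytic subunit for phenylalanine, changed by 0.47 ± 0.09, 0.33 ± 0.10, 0.42 ± 0.09, and 0.37 ± 0.09 on the log2 scale in SLE-BDL, MLE-BDL, SLE-sham, and MLE-sham. FARSA had 28.3 to 49.2 (median 39.6) CPM in ENT-sham and 33.4 to 46.9 (median 42.3) in ENT-BDL. In PN pigs, FARSA had 41.3 to 67.9 (median 52.7) CPM in SLE-sham, 45.6 to 71.4 (median 53.9) in SLE-BDL, 41.4 to 59.5 (median 50.6) in MLE-sham, and 45 to 68.7 (median 50.8) in MLE-BDL. Most PN-BDL pigs lay above the ENT-BDL range, 10 of 11 on SLE and 6 of 8 on MLE. FARSB, the other subunit, was called in MLE-sham alone (0.31 ± 0.11, edgeR adjusted p = 0.0347) and had 0.26, 0.28, and 0.27 in SLE-BDL, MLE-BDL, and SLE-sham. LOC110261142, a FARSB-like gene outside the rule, was called higher in all 4 (0.40, 0.51, 0.65, and 0.47), and reads of FARSB could have been split between the copies, so the FARSB values are uncertain.

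WARS, the tryptophanyl enzyme, is also known as a gene that interferon gamma induces. WARS had 21.0 to 37.9 (median 25.5) CPM in ENT-sham and 19.9 to 30.3 (median 27.5) in ENT-BDL. In PN pigs, WARS had 30.2 to 41.1 (median 34.2) CPM in SLE-sham, 24.9 to 44.1 (median 36.4) in SLE-BDL, 25.4 to 41.2 (median 32.8) in MLE-sham, and 30.5 to 47.0 (median 35.7) in MLE-BDL. All 8 MLE-BDL pigs lay above the highest ENT-BDL pig, whereas only 2 of 10 SLE-sham pigs lay above the highest ENT-sham pig. WARS changed by 0.35 ± 0.10, 0.44 ± 0.11, 0.38 ± 0.10, and 0.31 ± 0.10 on the log2 scale, in the same order of groups. Of 12 tested interferon gamma response genes, 0 were called in these comparisons by edgeR apart from CXCL11, a chemokine, which was lower in MLE-sham than in ENT-sham (-2.93 ± 0.78, edgeR adjusted p = 0.00451). At an unadjusted p under 0.05 there were 2, 0, 1, and 2 of the 12, beside 32.1%, 29.7%, 37.2%, and 33.3% of all tested genes.

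NARS, which charges asparagine, and GARS, the glycyl enzyme of both compartments, had smaller or less even differences. NARS had 70.5 to 91.3 (median 77.6) CPM in ENT-sham and 71.2 to 108 (median 84.6) in ENT-BDL. In PN pigs, NARS had 86.4 to 105 (median 92.2) CPM in SLE-sham, 91.5 to 129 (median 99.9) in SLE-BDL, 77.4 to 108 (median 92.6) in MLE-sham, and 84.8 to 115 (median 104) in MLE-BDL. The ranges of NARS overlapped in each comparison of PN with ENT, with differences of 0.20 to 0.29 on the log2 scale. GARS had 41.2 to 59.8 (median 48.7) CPM in ENT-sham and 47.0 to 63.3 (median 53.2) in ENT-BDL. In PN pigs, GARS had 48.8 to 102 (median 65.1) CPM in SLE-sham, 47.5 to 94.4 (median 70.4) in SLE-BDL, 44.0 to 76.4 (median 49.3) in MLE-sham, and 61.9 to 85.6 (median 68.8) in MLE-BDL. GARS differed from ENT by 0.34 ± 0.12 in SLE-BDL, 0.39 ± 0.13 in MLE-BDL, and 0.47 ± 0.11 in SLE-sham, and by 0.16 ± 0.12 in MLE-sham, where it was not called (edgeR adjusted p = 0.357).

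**Figure D3:**
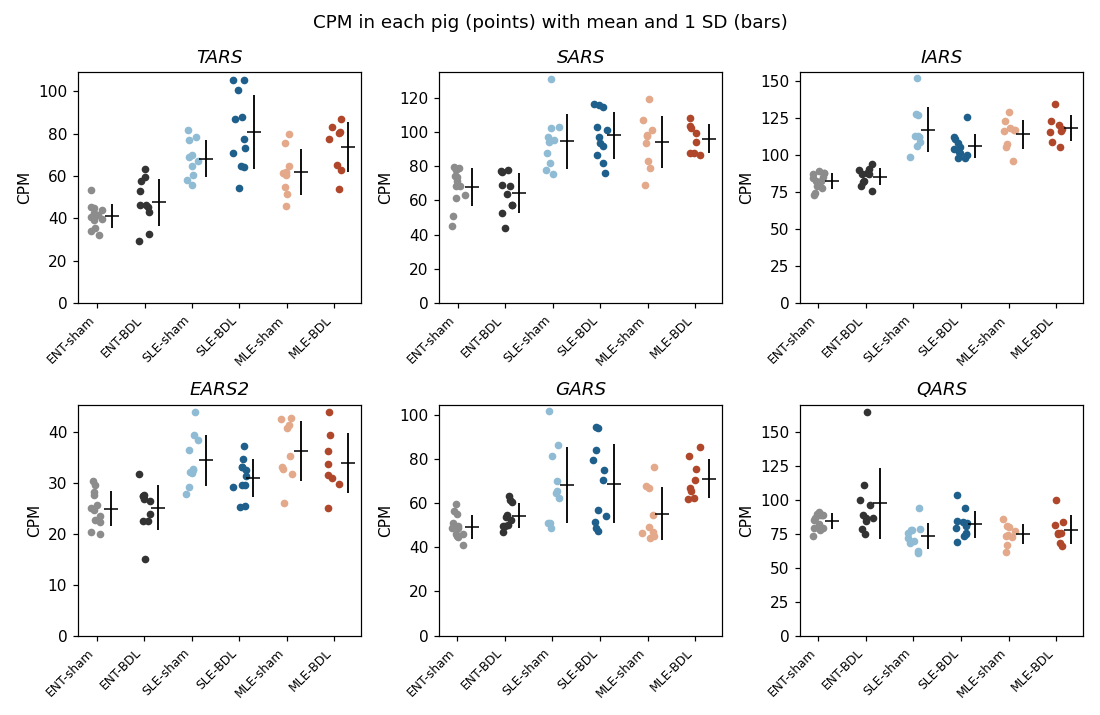
CPM of 6 genes in each of the 60 pigs by group, with the group mean and 1 SD beside the points; each axis starts at 0. All IARS points of the 4 PN groups lie above the ENT points of the same surgery, GARS in MLE-sham (median 49.3) stays near ENT-sham (median 48.7), and a single ENT-BDL pig has 165 CPM of QARS.

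QARS, which charges glutamine, was the only member called lower in PN, except that KARS was also called lower in SLE-BDL with the identifier term (-0.28, edgeR adjusted p = 0.0271). QARS had 73.1 to 91.4 (median 86.1) CPM in ENT-sham and 74.8 to 165 (median 88.1) in ENT-BDL. In PN pigs, QARS had 60.7 to 94.3 (median 74.0) CPM in SLE-sham, 69.3 to 104 (median 80.7) in SLE-BDL, 61.4 to 86.0 (median 74.3) in MLE-sham, and 66.3 to 99.8 (median 75.8) in MLE-BDL. The groups overlapped, and 1 ENT-BDL pig, replicate 4, stood apart with 165 CPM. QARS fell by 0.25 on the log2 scale in SLE-BDL (SE 0.09, edgeR adjusted p = 0.0369) and by 0.32 in MLE-BDL (SE 0.10, edgeR adjusted p = 0.0149). Without ENT-BDL replicate 4 these differences were -0.14 and -0.22 and neither was called. In sham pigs the values were -0.19 ± 0.09 in SLE and -0.17 ± 0.09 in MLE (edgeR adjusted p = 0.0886 and 0.16).

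KARS, the lysyl enzyme, and RARS, the arginyl enzyme, were not called in any comparison without that term. KARS had 133 to 198 (median 174) CPM in ENT-sham and 153 to 322 (median 183) in ENT-BDL. In PN pigs, KARS had 138 to 189 (median 156) CPM in SLE-sham, 126 to 214 (median 168) in SLE-BDL, 122 to 218 (median 155) in MLE-sham, and 130 to 242 (median 178) in MLE-BDL. The highest KARS value, 322 CPM, was in ENT-BDL replicate 4, the pig that also had the highest QARS, RARS, and DARS and the lowest EARS2 and PARS2 of its group. It was at the top of its group for TARS, SARS, NARS, LARS, YARS2, MARS2, and FARS2 as well. For VARS, YARS, CARS, SARS2, TARS2, and WARS2 it was at the bottom. This pig thus sets 1 end of the ENT-BDL range for each of these members. Differences of KARS from ENT were -0.26, -0.19, -0.10, and -0.12 on the log2 scale in SLE-BDL, MLE-BDL, SLE-sham, and MLE-sham. Without that pig, those of KARS after BDL were -0.18 in SLE and -0.11 in MLE. With all pigs, differences of RARS were -0.05, -0.07, -0.09, and -0.08 with an SE of 0.06 to 0.07. LARS, the leucyl enzyme that also senses leucine for mTORC1, was called in sham pigs alone, at 0.31 ± 0.11 in SLE and 0.33 ± 0.11 in MLE, and had 0.09 and 0.10 after BDL. With the term for the identifier number, LARS had 0.19 (edgeR adjusted p = 0.131) and 0.21 (edgeR adjusted p = 0.2) in the sham pigs. DARS, the aspartyl enzyme, was called in SLE-sham (0.24 ± 0.07), and without ENT-BDL replicate 4 it was also called in SLE-BDL (0.24, edgeR adjusted p = 0.00687) and MLE-BDL (0.21, edgeR adjusted p = 0.0319). HARS, the histidyl enzyme, was called in SLE-BDL (0.21 ± 0.07) and SLE-sham (0.21 ± 0.07), and CARS in SLE-BDL (0.32 ± 0.11). With the identifier term the adjusted p of HARS was 0.0837 and 0.0624 in edgeR. Without the closest pair of ENT libraries it was 0.0853 for HARS and 0.0526 for CARS in SLE-BDL, and these calls were lost in 17 and 8 of the 60 fits that each left out 1 pig.

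Among the cytosolic enzymes, EPRS, IARS, LARS, MARS, QARS, KARS, RARS, and DARS are known subunits of the multisynthetase complex. This split was made after their values were seen and carries no test. Of these 8, 3 were called higher and 1 lower in SLE-BDL against ENT-BDL (median log2 fold change 0.14), against 11 higher of the 12 outside the complex (median 0.41). In MLE-BDL the counts were 3 higher and 1 lower of 8 (median 0.12) and 9 of 12 (median 0.36). The counts of the complex after BDL depended in part on ENT-BDL replicate 4. Without it, QARS was not called in SLE-BDL (-0.14) or MLE-BDL (-0.22). DARS was then called higher in both (0.24 and 0.21, edgeR adjusted p = 0.00687 and 0.0319). For sham pigs they were 5 of 8 (median 0.28) and 10 of 12 (median 0.34) in SLE and 4 of 8 (median 0.24) and 9 of 12 (median 0.30) in MLE. Of the scaffold proteins, AIMP1 was lower in SLE-BDL (-0.40 ± 0.09) and MLE-BDL (-0.36 ± 0.10) than in ENT-BDL, while EEF1E1 was higher in SLE-BDL (0.40 ± 0.13) and SLE-sham (0.36 ± 0.13) and AIMP2 in SLE-sham (0.45 ± 0.17).

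**Figure D4:**
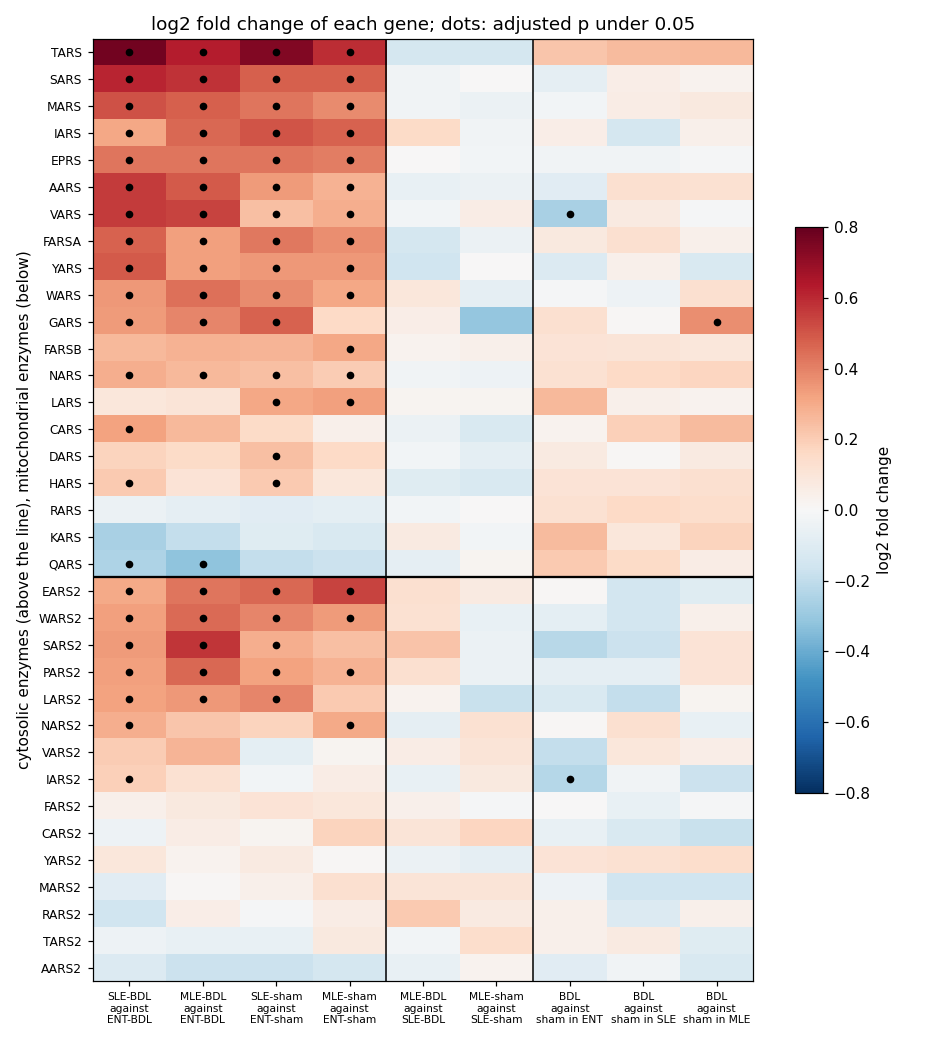
Log2 fold change of 35 of the 36 genes (rows, cytosolic above the line and mitochondrial below) in the 9 pairwise comparisons (columns), red for higher and blue for lower in the group named first; dots mark an adjusted p under 0.05. Dots fill most of the cytosolic rows in the 4 columns of PN against ENT, 3 stand in the columns of BDL against sham, and none stand in the columns of MLE against SLE.

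Of the mitochondrial enzymes, EARS2, WARS2, and PARS2, which charge glutamate, tryptophan, and proline, were called higher most often. EARS2 had 20 to 30.2 (median 24.7) CPM in ENT-sham and 14.9 to 31.6 (median 26.5) in ENT-BDL. In PN pigs, EARS2 had 27.7 to 43.8 (median 32.6) CPM in SLE-sham, 25.3 to 37.3 (median 31.3) in SLE-BDL, 26.0 to 42.6 (median 35.2) in MLE-sham, and 24.9 to 43.8 (median 32.6) in MLE-BDL. Among sham pigs, 8 of 10 on SLE and 8 of 9 on MLE exceeded every ENT-sham pig. EARS2 changed by 0.30 ± 0.10, 0.43 ± 0.11, 0.46 ± 0.10, and 0.54 ± 0.10 on the log2 scale in SLE-BDL, MLE-BDL, SLE-sham, and MLE-sham. WARS2 had 3.36 to 6.52 (median 4.86) CPM in ENT-sham and 3.04 to 5.70 (median 4.57) in ENT-BDL. In PN pigs, WARS2 had 4.06 to 7.50 (median 6.62) CPM in SLE-sham, 4.67 to 6.70 (median 5.97) in SLE-BDL, 4.10 to 8.79 (median 6.15) in MLE-sham, and 5.46 to 7.28 (median 6.22) in MLE-BDL. WARS2 was the member with the fewest reads, with a lowest count of 43 in a library, and its differences lay between 0.33 and 0.45. PARS2 had 7.68 to 13.0 (median 10.6) CPM in ENT-sham and 5.66 to 11.7 (median 10.6) in ENT-BDL. In PN pigs, PARS2 had 10.8 to 16 (median 13.2) CPM in SLE-sham, 10.3 to 15.3 (median 12.2) in SLE-BDL, 10.1 to 13.9 (median 12.9) in MLE-sham, and 10.4 to 19.5 (median 13.2) in MLE-BDL. PARS2 differed by 0.28 to 0.46 on the log2 scale, and 7 of 11 SLE-BDL and 6 of 8 MLE-BDL pigs exceeded every ENT-BDL pig. With the identifier term, PARS2 in MLE-sham was 0.15 (edgeR adjusted p = 0.411), WARS2 in MLE-sham 0.29 (edgeR adjusted p = 0.168), and EARS2 in MLE-BDL 0.31 (edgeR adjusted p = 0.0922).

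SARS2, the mitochondrial seryl enzyme, had the largest mitochondrial change in MLE-BDL, 0.57 ± 0.10 on the log2 scale (edgeR adjusted p = 4.04e-05). It had 5.45 to 10.4 (median 9.45) CPM in ENT-BDL and 11.2 to 17.2 (median 12.6) in MLE-BDL, without overlap. SARS2 was also called higher in SLE-BDL (0.34) and in SLE-sham (0.29), the latter not with the identifier term. LARS2, the leucyl enzyme, was called in SLE-BDL (0.32 ± 0.09), MLE-BDL (0.35 ± 0.10), and SLE-sham (0.39 ± 0.09). NARS2, the asparaginyl enzyme, was called in SLE-BDL (0.29 ± 0.10) and MLE-sham (0.30 ± 0.10), and IARS2 in SLE-BDL (0.19 ± 0.06). The other 9 mitochondrial members, among them AARS2, CARS2, MARS2, TARS2, and YARS2, were called in none of the 9 comparisons. LOC100521256, annotated as a probable mitochondrial histidyl enzyme and outside the rule by its symbol, was not called either, with differences of -0.10 to 0.00 from ENT.

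For 13 amino acids the cytosolic and the mitochondrial enzyme shared the first letter of their symbol, and these pairs were compared. EPRS with EARS2 and PARS2, and FARSA and FARSB with FARS2, were left out of the counts. EPRS had the smaller value, for example, against EARS2 in MLE-sham (0.41 and 0.54) and against PARS2 in MLE-BDL (0.43 and 0.46). It had the larger value against EARS2 in SLE-BDL (0.43 and 0.30). The cytosolic log2 fold change exceeded the mitochondrial one in 11 of 13 pairs in SLE-BDL, 10 in MLE-BDL, 10 in SLE-sham, and 9 in MLE-sham, with a median difference of 0.27, 0.28, 0.27, and 0.24. The count was also 10 of 13 in each comparison of BDL with sham, with a median difference of 0.08, 0.15, and 0.16 in ENT, SLE, and MLE. Threonine had the widest gap, with 0.77 for TARS and -0.04 for TARS2 in SLE-BDL. Alanine was next, with 0.56 for AARS and -0.11 for AARS2. Tryptophan had nearly equal values, with 0.35 for WARS and 0.33 for WARS2, and leucine the reverse order, with 0.09 for LARS and 0.32 for LARS2.

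Summed over the class, cytosolic enzymes had 1210 ± 86.1 CPM in ENT-sham (SD, n = 12) and 1270 ± 145 in ENT-BDL (n = 10). The sums were 1460 ± 146 in SLE-sham (n = 10), 1530 ± 128 in SLE-BDL (n = 11), 1420 ± 157 in MLE-sham (n = 9), and 1520 ± 130 in MLE-BDL (n = 8). Mitochondrial sums ranged from 298 ± 14.4 in ENT-BDL to 350 ± 20.1 in MLE-sham. The ratio of the cytosolic to the mitochondrial sum was 3.81 ± 0.201 in ENT-sham, 4.28 ± 0.369 in SLE-sham, and 4.06 ± 0.315 in MLE-sham. After BDL it was 4.27 ± 0.468 in ENT, 4.70 ± 0.424 in SLE, and 4.56 ± 0.220 in MLE. The cytosolic sum did not overlap between ENT-sham (1040 to 1300) and SLE-sham (1320 to 1810), but it did between ENT-sham and MLE-sham (1200 to 1620). It also overlapped between ENT-BDL (1040 to 1520) and both SLE-BDL (1320 to 1770) and MLE-BDL (1320 to 1740). The ranges of the ratio overlapped between the diets within each surgery. KARS alone made up 173 CPM of the cytosolic sum on average, so these sums weigh the abundant members most.

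**Figure D5:**
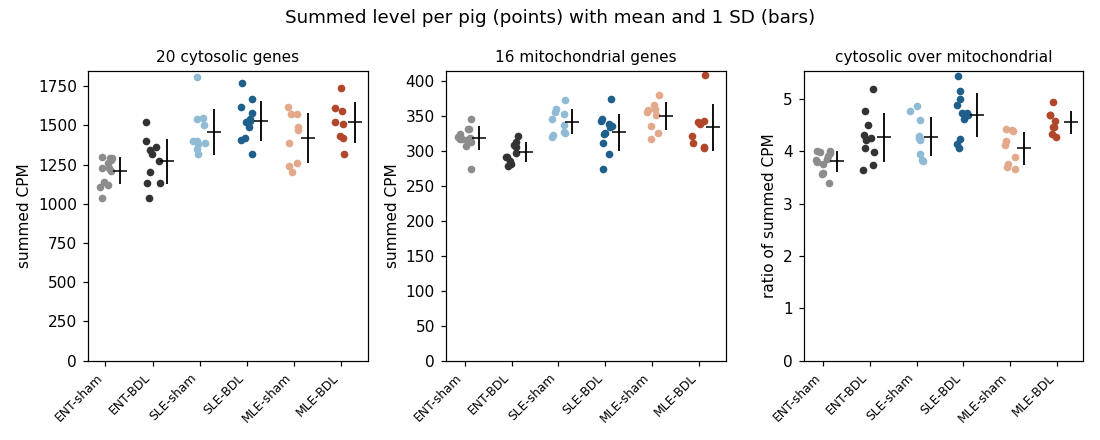
Summed CPM of the 20 cytosolic and the 16 mitochondrial genes and their ratio in each pig, by group, with mean and 1 SD; axes start at 0. Cytosolic sums average 1210 in ENT-sham and 1270 in ENT-BDL and between 1420 and 1530 in the PN groups, and the ratio is lowest in ENT-sham at 3.81.

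Some markers of other cell types were called between the diets as well, in shares that were in part near or below those of all tested genes (19.6%, 16.8%, 27.5%, and 21.1% in SLE-BDL, MLE-BDL, SLE-sham, and MLE-sham). The summed level of 6 tested erythroid markers was 478 to 2420 CPM in ENT-sham and 343 to 3850 in ENT-BDL. It was 219 to 828 in SLE-sham, 127 to 1390 in SLE-BDL, 437 to 833 in MLE-sham, and 139 to 507 in MLE-BDL. In MLE-BDL, 4 of the 6 were lower than in ENT-BDL, HBB by -2.33 ± 0.39 on the log2 scale, and 1 was lower in SLE-BDL, 2 in SLE-sham, and 2 in MLE-sham. Of 7 cholangiocyte markers, 3 were higher in SLE-sham than in ENT-sham (summed 220 to 385 against 73.3 to 372 CPM), among them KRT19 (1.27 ± 0.25), 2 were higher in MLE-sham, 1 in SLE-BDL, and 2 in MLE-BDL than in ENT of the same surgery (42.9%, 28.6%, 14.3%, and 28.6% called). Of 9 hepatocyte markers, 1 was higher and 3 were lower in SLE-sham, 1 higher and 2 lower in MLE-sham, 1 higher and 1 lower in SLE-BDL, and 0 higher and 1 lower in MLE-BDL (44.4%, 33.3%, and 22.2% called in the first 3). Of 6 macrophage markers, 2 were higher in SLE-sham, where the other 4 had values below 0 (median of the 6 -0.23, summed 704 to 1010 against 534 to 1270 CPM), 1 was lower in MLE-sham (703 to 1040 CPM), and 0 were called after BDL. None of these markers was at 0 in all pigs, and their part in the differences of the synthetases was not tested.

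The second question was whether the lipid emulsion mattered. No member was called between MLE-BDL and SLE-BDL or between MLE-sham and SLE-sham in edgeR or in DESeq2, beside 0.907% and 0.999% of all tested genes in edgeR (0.370% and 0.463% with a change over 2-fold). At an unadjusted p under 0.05 there were 3 members and 1 member, beside 13% and 11.3% of all tested genes. Log2 differences of MLE from SLE ran from -0.16 to 0.23 after BDL and from -0.31 to 0.17 after sham surgery. Standard errors of the members were 0.06 to 0.12. GARS had the most negative value in sham pigs (-0.31 ± 0.12, edgeR adjusted p = 0.27). IARS had the lowest adjusted p after BDL (0.15 ± 0.06, edgeR adjusted p = 0.25). A missed threshold does not show that the emulsions act alike, and differences of about 2 SE either way remain possible for each member.

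The third question was whether BDL changed the enzymes within a diet. In ENT, 2 of 36 members were called and both were lower, beside 17.4% of all tested genes (8.53% lower). IARS2 had 69.2 to 97.4 (median 89.3) CPM in ENT-sham and 67.2 to 81.0 (median 76.2) in ENT-BDL, a log2 difference of -0.23 ± 0.06 (edgeR adjusted p = 0.00263). VARS differed by -0.26 ± 0.09 (edgeR adjusted p = 0.0484), and its call was lost in 28 of the 60 fits without 1 pig. In MLE, 1 of 36 members was called, and it was higher, beside 14.4% (7.85% higher). This was GARS, with 44.0 to 76.4 (median 49.3) CPM in MLE-sham and 61.9 to 85.6 (median 68.8) in MLE-BDL (0.37 ± 0.13, edgeR adjusted p = 0.0446), and its call was lost in 37 of the 60 fits. IARS2, with -0.17 ± 0.06 in MLE, was also called lower there with DESeq2 (-0.18, adjusted p = 0.0361), with the identifier term (-0.17, edgeR adjusted p = 0.0347), and without the closest pair of ENT libraries (edgeR adjusted p = 0.0406). In SLE, 0 members were called in edgeR or DESeq2, beside 4.54%, and 5 had an unadjusted p under 0.05, beside 18.3% of all tested genes. No member changed over 2-fold with BDL, beside 3.39%, 1.49%, and 3.78% of all tested genes in ENT, SLE, and MLE.

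The median log2 fold change after BDL was 0.07, 0.08, and 0.09 for the cytosolic and -0.05, -0.06, and -0.03 for the mitochondrial members in ENT, SLE, and MLE. Cholangiocyte markers moved with the surgery, with 5 of 7 higher in ENT-BDL (summed 227 to 415 against 73.3 to 372 CPM in ENT-sham), 1 of 7 in SLE-BDL, and 6 of 7 in MLE-BDL (248 to 455 against 172 to 243 CPM). Of 7 stellate cell and fibroblast markers, 4 were higher in MLE-BDL than in MLE-sham (summed 2200 to 5880 against 1210 to 3130 CPM), 2 in ENT-BDL, and 1 in SLE-BDL. MARCO, a macrophage receptor, was higher with BDL in each diet, and CD5L, a protein that macrophages secrete, was lower in ENT-BDL and MLE-BDL, with no further call among 6 macrophage markers. Of 6 erythroid markers, 2 were lower in MLE-BDL than in MLE-sham, HBB and ALAS2 (139 to 507 against 437 to 833 CPM), and 0 were called in ENT or SLE. Of 6 endothelial markers, LYVE1 was lower in ENT-BDL. Of 9 hepatocyte markers, 5 were lower in MLE-BDL (65500 to 89100 against 83200 to 137000 CPM), 4 were lower and 1 higher in ENT-BDL (63700 to 120000 against 63500 to 137000 CPM), and 0 were called in SLE-BDL. None of these markers was at 0 in all pigs, and their part in the values of the synthetases was not tested. No interaction of diet and BDL was called for any member in edgeR or DESeq2, beside 2.33%, 0.0617%, and 0.265% of all tested genes for SLE against ENT, MLE against ENT, and MLE against SLE. At an unadjusted p under 0.05 there were 4, 1, and 3 members, beside 14.8%, 9.04%, and 9.76% of all tested genes. IARS2 had the lowest adjusted p (0.20 ± 0.08 for SLE against ENT, edgeR adjusted p = 0.185).

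Around the synthetases, 25 genes of the ATF4 and ISR list were tested. In SLE-BDL, MLE-BDL, SLE-sham, and MLE-sham against ENT, 12, 12, 12, and 11 of them were higher and 0, 0, 3, and 2 lower. Their medians were 0.46, 0.33, 0.34, and 0.30 on the log2 scale. Of all tested genes, 19.6%, 16.8%, 27.5%, and 21.1% were called in these comparisons. CHAC1, which degrades glutathione, differed by 2.19 ± 0.51 in SLE-BDL and 2.51 ± 0.54 in MLE-BDL. TRIB3, a pseudokinase, differed by 2.18 ± 0.30 in MLE-BDL and DDIT3, a transcription factor of the ISR, by 1.79 ± 0.20 in SLE-BDL. DDIT4, an inhibitor of mTORC1, differed by 1.79 ± 0.21 in SLE-sham and 1.76 ± 0.21 in MLE-sham. ATF4 itself and the next 3 genes were named after their values were seen. ATF4 was higher by 0.49 ± 0.09, 0.53 ± 0.09, 0.51 ± 0.08, and 0.54 ± 0.09. Genes of the list that fell in SLE-sham were ATF5 (-0.43 ± 0.15), a further factor of the ISR, ALDH1L2 (-0.60 ± 0.12), an enzyme of mitochondrial folate metabolism, and CTH (-0.47 ± 0.17), which makes cysteine from cystathionine. With BDL against sham, 8, 4, and 4 of the 25 were called in ENT, SLE, and MLE, in either direction. This stood beside 17.4%, 4.54%, and 14.4% of all tested genes. In the interaction of SLE against ENT, 2 of the 25 were called, beside 2.33%, and 0 in the other interactions.

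Of 16 chaperones and related genes of the endoplasmic reticulum (ER), 14 were higher in SLE-BDL, 9 in MLE-BDL, 14 in SLE-sham, and 12 in MLE-sham. None was lower, while 2, 7, 2, and 4 were not called (medians 0.93, 0.49, 0.89, and 0.54 on the log2 scale). The shares of all tested genes called were 19.6%, 16.8%, 27.5%, and 21.1%. SDF2L1, an ER protein that keeps clients soluble, differed by 2.48 ± 0.30 in SLE-BDL and 1.91 ± 0.31 in MLE-BDL, CRELD2, an ER protein of the unfolded protein response, by 2.25 ± 0.28 and 1.69 ± 0.29, and HSPA5, the main ER chaperone, by 1.44 ± 0.19 and 1.14 ± 0.20. After BDL within a diet, 0 of these 16 were higher and 1, 0, and 1 lower in ENT, SLE, and MLE. Of all tested genes, 17.4%, 4.54%, and 14.4% were called there in either direction. Of 4 kinases of eIF2, which start the ISR, 0 were called in PN against ENT by edgeR. At an unadjusted p under 0.05 there were 1, 0, 1, and 1, beside 32.1%, 29.7%, 37.2%, and 33.3% of all tested genes.

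Of 17 amino acid transporters, 4, 4, 5, and 5 were higher and 2, 1, 2, and 1 lower in SLE-BDL, MLE-BDL, SLE-sham, and MLE-sham against ENT, or 35.3%, 29.4%, 41.2%, and 35.3% called beside 19.6%, 16.8%, 27.5%, and 21.1% of all tested genes. SLC3A2, a heavy chain shared by several transporters, differed by 0.72 ± 0.12 and 0.71 ± 0.13 in SLE-BDL and MLE-BDL. SLC7A5, its light chain for large neutral amino acids, differed by 0.74 ± 0.24 and 1.11 ± 0.26. SLC43A2, another transporter of neutral amino acids, differed by 0.69 ± 0.10 in SLE-sham and 0.80 ± 0.10 in MLE-sham. SLC38A1, a glutamine transporter, was lower in SLE-BDL (-0.82 ± 0.25).

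Other genes of tRNA charging were called in both directions. Of 12 tested, 0, 1, 3, and 2 were higher and 3, 4, 3, and 1 lower in the same order of comparisons (25%, 41.7%, 50%, and 25% called, beside the same shares of all tested genes). SEPSECS, which completes the selenocysteine tRNA, was lower in SLE-BDL (-0.54 ± 0.09), MLE-BDL (-0.53 ± 0.10), SLE-sham (-0.56 ± 0.09), and MLE-sham (-0.40 ± 0.09). PSTK, which acts on the same tRNA just before it, was lower in SLE-BDL (-0.51 ± 0.12) and MLE-BDL (-0.40 ± 0.13). GATB, a subunit of the mitochondrial amidotransferase that makes glutaminyl-tRNA, was lower in SLE-BDL (-0.44 ± 0.08) and MLE-BDL (-0.28 ± 0.09). TARSL2, a further threonyl enzyme of the cytosol, was lower in SLE-sham (-0.36 ± 0.10), where TARS was higher, and AARSD1, an alanyl editing protein, was higher in MLE-sham (0.25 ± 0.09).

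Of 20 cytosolic translation factors, 4, 2, 3, and 1 were higher and 5, 4, 6, and 4 lower (45%, 30%, 45%, and 25% called). EEF2, which moves the ribosome along the mRNA, was lower in SLE-BDL (-0.60 ± 0.09), MLE-BDL (-0.55 ± 0.10), SLE-sham (-0.47 ± 0.09), and MLE-sham (-0.51 ± 0.09). EEF1A1, which brings charged tRNA to the ribosome, and EEF1B2, part of its exchange factor, were lower as well, EEF1B2 by -0.50 ± 0.13 and EEF1A1 by -0.42 ± 0.10 in SLE-BDL. EIF4G1, an initiation scaffold, was higher by 0.46 ± 0.07 and 0.38 ± 0.08 in SLE-BDL and MLE-BDL. Of 14 tested mitochondrial translation factors, 3, 3, 3, and 1 were higher and 0 lower (21.4%, 21.4%, 21.4%, and 7.14% called, beside 19.6%, 16.8%, 27.5%, and 21.1% of all tested genes), with GFM2, a ribosome recycling factor, higher by 0.51 ± 0.09, 0.50 ± 0.10, 0.54 ± 0.09, and 0.55 ± 0.09. Of 11 genes of mitochondrial biogenesis, 3, 1, 1, and 2 were higher and 0, 0, 2, and 2 lower (27.3%, 9.09%, 27.3%, and 36.4%), among them PPARGC1A, a master coactivator, in SLE-sham (-0.44 ± 0.16) and MLE-sham (-0.57 ± 0.16).

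Within groups, cytosolic members varied together more than mitochondrial members did. After group means were subtracted from log2 CPM, the median Pearson correlation over 60 pigs was 0.42 for the 190 pairs of cytosolic members (182 positive), 0.16 for the 120 mitochondrial pairs (99 positive), and 0.16 for the 320 mixed pairs (260 positive). Without the closest pair of ENT libraries the medians were 0.39, 0.15, and 0.14. EPRS had the highest median correlation with the other cytosolic members, 0.59, and KARS the lowest, 0.23. All genes of a pig share its library and its scaling, and mitochondrial members have fewer counts, so these values are a description.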

How the data were processed

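Liver mRNA of 60 pigs was sequenced as paired-end reads from poly-A selected libraries. Per the labels and the methods, the authors trimmed reads with fastp, aligned them to Sscrofa11.1 with HISAT2 2.0.5, and counted them with featureCounts 1.5.0-p3. They deposited raw counts per gene without normalization, with gene lengths in bases beside them. StringTie 1.3.3 is also named in the submitters' processing notes.

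Groups came from the labels. The 24 rows without a gene name (0.00842% to 0.0407% of a library's counts) were left out. In R 4.3.3 with edgeR 4.0.16, genes were kept with filterByExpr over the 6 groups, scaled by TMM, and fitted for all 60 pigs together (estimateDisp, glmQLFit with robust=TRUE, glmQLFTest), with Benjamini-Hochberg adjustment over 16210 genes. SE is the absolute log2 fold change divided by the square root of F. CPM used TMM-scaled library sizes, correlations used log2 CPM with a prior count of 2, and levels of different genes were compared per kb, except for class sums and the cysteine pair, which are also given in CPM.

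The members, the gene lists, and the tests were chosen with earlier results of these data known. Up to 8 called members per comparison with the largest changes were named, members called in at least 4 of the 9 pairwise comparisons (15) were given with levels in each group, and up to 4 called genes of each other list. Alternatives were DESeq2 1.42.0, its size factors in edgeR, no filter, a replicate block, a block for the identifier number, a 2-fold limit, no closest pair of ENT libraries, and leaving out each pig. On simulated data for SLE-BDL against ENT-BDL (16048 genes), edgeR found 26 of 50 genes changed by 0.4 on the log2 scale, 40 of 50 by 0.6, and 48 of 50 by 1, with 6 false calls. The simulated counts held no outlying pig, no effect of the identifier number, and a smaller share of changed genes than was called here. These rates thus need not hold for the real data. No protein or promoter sequences were used here, so a planned promoter search was not run. The values of 1 member are not reported here by name.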

Additional observations from a re-analysis of the deposited data

Results flagged for a closer look

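Levels of 18 members in the 4 groups with at most 10 pigs were searched for a pig far from the rest of its group, using the gap to the nearest pig as a share of the range. Of 72 such sets, 8 had a pig beyond the limit, where chance gives about 1 in 20 for a single set. The sets share pigs and the members varied together, so the sets are not independent trials and the count is a description.

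In MLE-BDL replicate 1, VARS stood at 127 CPM with the next pig at 97.5, and FARSA at 68.7 CPM with the next at 54.6. In ENT-BDL replicate 4, QARS stood at 165 CPM above the next value of 111, and PARS2 at 5.66 CPM below the next of 9.04. SARS in SLE-sham replicate 6 was high at 131 CPM (next 103), and KARS in MLE-sham replicate 2 was high at 218 CPM (next 170). WARS in ENT-BDL replicate 10 was low at 19.9 CPM (next 25.2), and WARS2 in SLE-sham replicate 2 was low at 4.06 CPM (next 5.71). Without ENT-BDL replicate 4, neither call of QARS in PN-BDL against ENT-BDL held.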

How the results depend on the processing

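Of the 80 calls of members over the 9 pairwise comparisons, 79 remained with DESeq2, 78 with its size factors, 71 without a filter, 72 with the replicate block, 65 with the identifier block, and 76 without the closest pair of ENT libraries, and 0 reversed. Counts for BDL against sham in ENT moved from 2 to 1 without a filter. For BDL against sham in MLE the count of 1 became 2 with DESeq2, 0 with its size factors, 0 without a filter, 2 with the identifier block, and 2 without the closest pair of ENT libraries, where IARS2 (lower) was the call gained in each setting with 2. MLE-sham against ENT-sham moved from 17 to 11 with the replicate block and to 11 with the identifier block. Identifier number and diet were partly confounded in these groups, and the cause was not tested. The 8 calls lost with the replicate block were QARS in SLE-BDL, VARS in SLE-sham, and NARS, VARS, WARS, FARSB, PARS2, and NARS2 in MLE-sham. Replicate numbers did not pair pigs: over 82 same-numbered pairs of pigs in different groups, residual correlations ran from -0.231 to 0.381 (median -0.0112). With a limit of more than 2-fold, every count was 0.

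Leaving out 1 pig at a time gave 1 to 3 calls for BDL in ENT, 0 to 2 in MLE, 17 to 23 for SLE-BDL and 16 to 20 for MLE-BDL against ENT-BDL, and 18 to 22 for SLE-sham and 13 to 18 for MLE-sham against ENT-sham. It gave 0 in each fit for the other comparisons and interactions. Of the 80 calls, 57 were kept in all 60 fits and 23 were lost in at least 1. HARS in SLE-BDL was lost in 17, CARS in SLE-BDL and NARS in MLE-sham in 8 each, and QARS and GARS in SLE-BDL and FARSB in MLE-sham in 7 each. Calls lost in exactly 1 fit, without the pig named, were EARS2 in SLE-BDL and QARS in MLE-BDL (ENT-BDL replicate 4), FARSA and LARS2 in MLE-BDL (MLE-BDL replicate 1), and GARS in MLE-BDL (MLE-BDL replicate 4). Depth limits WARS2 and NARS2 most, with lowest counts of 43 and 60.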
